A study of Homo sapiens with 16 samples.

Results

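PPIF, which encodes the mitochondrial cyclophilin D, and 8 further cyclophilin genes (PPIA, PPIB, PPIC, PPID, PPIE, PPIG, PPIH and PPIL1) were followed through 16 RNA sequencing libraries. They were chosen by gene symbol, with earlier results of these data known, and they are 9 of the 27311 genes listed. All 9 were among the 14398 genes tested. Levels are given in TPM, transcripts scaled to gene length and to a fixed total per library, so that they can be compared between genes. The study, on enhancers and disease genes, sequenced 4 human immune cancer lines in 8 groups of 2 libraries. THP-1 cells, a monocytic line that here carried dCas9-KRAB (a Cas9 that cannot cut, joined to a repressor domain), were untreated or given 1 µg/ml bacterial lipopolysaccharide (LPS). U937 cells, a wild-type monocytic line, were untreated or given 200 ng/ml LPS. Jurkat cells, a wild-type T cell line, were untreated or given 5 µg/ml anti-CD3 antibody and 100 ng/ml of the phorbol ester PMA. BJAB cells, a wild-type B cell line, were untreated or given 10 µg/ml anti-IgM and 4 µg/ml anti-CD40 antibody. Every stimulation lasted 4 h. Only THP-1 carried the repressor, so a difference between THP-1 and another line cannot be told apart from the presence of the construct.

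Cyclophilins are enzymes that turn the peptide bond before a proline from cis to trans or back, and cyclosporin A binds several of them. Cyclophilin D sits in the mitochondrial matrix, where it promotes opening of the permeability transition pore, a channel of the inner membrane opened by high matrix calcium. PPIA encodes the abundant cytosolic cyclophilin A, whose complex with cyclosporin inhibits the phosphatase calcineurin and so blocks T cell activation. PPIB and PPIC encode cyclophilins of the secretory pathway, PPID a partner of the chaperone Hsp90, and PPIE, PPIG, PPIH and PPIL1 nuclear cyclophilins that associate with the splicing machinery.

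The promoters of 3 members whose levels follow different patterns over the lines are shown: PPIF, high in the monocytic lines; PPIA, even in all lines; and PPIC, without reads in the lymphoid lines. Each is the 250 bases before the annotated start, from RefSeq on GRCh38.p14, with the motifs found in capitals. PPIF lies at chr10:79347219-79347468 on the plus strand, PPIA at chr7:44796431-44796680 on the plus strand, and PPIC at chr5:123036726-123036975 on the minus strand.
PPIF: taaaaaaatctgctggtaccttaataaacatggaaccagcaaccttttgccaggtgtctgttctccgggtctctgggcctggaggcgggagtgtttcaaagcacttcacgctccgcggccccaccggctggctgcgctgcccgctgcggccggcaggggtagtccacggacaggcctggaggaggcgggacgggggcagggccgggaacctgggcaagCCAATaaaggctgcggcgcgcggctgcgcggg
PPIA: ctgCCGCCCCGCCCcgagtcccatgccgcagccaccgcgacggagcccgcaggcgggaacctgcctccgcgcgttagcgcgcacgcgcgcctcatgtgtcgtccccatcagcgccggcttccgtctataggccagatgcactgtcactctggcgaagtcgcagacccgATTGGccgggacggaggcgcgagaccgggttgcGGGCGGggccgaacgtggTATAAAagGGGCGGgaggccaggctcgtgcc
PPIC: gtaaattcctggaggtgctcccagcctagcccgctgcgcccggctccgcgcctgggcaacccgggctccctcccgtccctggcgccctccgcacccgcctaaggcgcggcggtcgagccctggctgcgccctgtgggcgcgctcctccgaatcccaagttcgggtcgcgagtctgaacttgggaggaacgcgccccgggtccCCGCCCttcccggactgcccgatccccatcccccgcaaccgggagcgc
The PPIF window holds 1 CCAAT, beginning 32 bases before the start. The PPIA window holds TATAAA, beginning 31 bases before the start, with 1 CCAAT (on the other strand, printed as its reverse complement) and 4 copies of GGGCGG, 2 of them on the other strand. The PPIC window holds 1 GGGCGG, on the other strand. Both strands were searched. Of 35116 RefSeq promoters cut to the same length, 10.716% hold TATAAA, 32.008% CCAAT and 42.639% GGGCGG. The other motifs searched were the ETS core CCGGAAG (8.517%), the AP-1 site TGACTCA (4.203%), the cyclic AMP element TGACGTCA (1.646%), its part TGACG (21.218%) and the E box CACGTG (6.345%), and none of them stands in the 3 windows. CpG pairs numbered 20 in the PPIF window, 35 in that of PPIA and 30 in that of PPIC, against a median of 11 over all promoters.

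Each line expressed most markers of its labelled type. Of 11 monocytic markers 9 reached 10 TPM in untreated THP-1 and 8 in U937, where CD14 was at 0. In Jurkat 7 of 7 T markers did, and in BJAB 6 of 7 B markers. Of the other types, 3 monocytic and 2 T markers also reached 10 TPM in BJAB, and 1 monocytic and 1 B marker in Jurkat. THP-1 and U937 had 0 T and 0 B markers at that level. The depth, from whole reads worked back out of the TPM, was 3317642 (second LPS library of THP-1) to 8432092 reads per library. Odd numbers made up 46.6% to 50% of the genes with 1 to 1000 reads in each, so no library had its reads doubled by the recovery. The first stimulated libraries of U937 and of BJAB stood apart from their partners: the SD of the log2 difference between the 2 libraries was 0.89 and 0.96 in those groups and 0.35 to 0.46 in the other 6. No label says whether the 2 libraries of a group came from separate cultures, so p-values measure the spread between libraries, which may be technical.

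PPIF was highest in the monocytic lines. Untreated U937 gave 599 and 568 TPM and untreated THP-1 442 and 486 TPM. Untreated BJAB gave 198 and 279 TPM and untreated Jurkat 197 and 201 TPM. All 4 monocytic libraries lay above all 4 lymphoid ones, and the means of U937 and Jurkat, the highest and lowest lines, differed 2.93-fold. How many of all tested genes separate in this way was not counted, so the separation is a description. On the log2(TPM + 1) scale PPIF was higher in U937 than in Jurkat by 1.55 ± 0.35 (SE, n = 2 per group, limma adjusted p = 0.00482) and than in BJAB by 1.31 ± 0.35 (adjusted p = 0.0123). It was higher in THP-1 than in Jurkat by 1.21 ± 0.35 (adjusted p = 0.0175) and than in BJAB by 0.98 ± 0.35 (adjusted p = 0.0482). Neighbours within each pair of the order were not separated: THP-1 minus U937 was -0.33 (95% interval -1.10 to 0.43, adjusted p = 0.578) and Jurkat minus BJAB -0.24 (95% interval -1.004 to 0.53, adjusted p = 0.702). These values rested on 1273 to 4430 PPIF reads per library. In bulk RNA, fewer cells with PPIF and less PPIF RNA per cell cannot be told apart.

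The 4 calls differed in how much they owed to single libraries. The excess of THP-1 over BJAB was past the threshold in 11 of 27 alternatives. It was lost when any 1 of the 12 libraries other than the stimulated ones of U937 and BJAB was left out (adjusted p 0.0594 to 0.274, the highest without the first untreated BJAB library). The excess of THP-1 over Jurkat was lost without any 1 of its 4 libraries (adjusted p 0.0639 to 0.0934). That of U937 over BJAB was lost without the first untreated U937 library (adjusted p = 0.0683), the second (0.0529) or the first untreated BJAB library (0.108). That of U937 over Jurkat was past the threshold in all 27 alternatives. With the replicate number as a block, the excess of THP-1 over BJAB was lost (adjusted p = 0.0599) and the other 3 had adjusted p from 0.0110 to 0.0278. Without both libraries that stand apart, all 4 were past it, with adjusted p from 1.46e-05 to 0.000344. Those 2 libraries stood apart by their spread in these same data, and that spread sets the SE (0.35 with them and 0.15 without). The smaller p-values are therefore no firmer support.

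**Figure D1:**
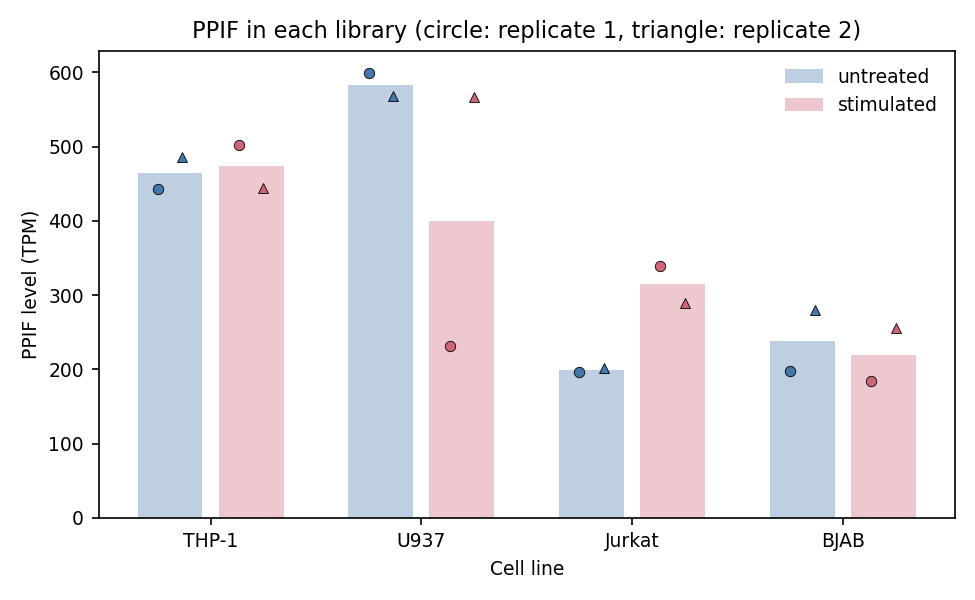
PPIF level in TPM (vertical axis, linear from 0) in each of the 16 libraries, by cell line and treatment. Bars are the means of 2 libraries, circles replicate 1 and triangles replicate 2. The 4 untreated libraries of THP-1 and U937 lie between 442 and 599 TPM, above the 4 of Jurkat and BJAB, and the first stimulated U937 library is at 231 TPM.

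No stimulation moved PPIF past the threshold with all 16 libraries in the fit. Stimulated Jurkat gave 339 and 289.7 TPM against 197 and 201 TPM untreated. Both stimulated libraries lay above both untreated ones, as they did for 21% of all tested genes in Jurkat. The difference was 0.65 ± 0.35 (95% interval -0.11 to 1.42, adjusted p = 0.515). With the 2 libraries that stand apart left out, the same difference had an SE of 0.15 and an adjusted p of 0.0193, and in a fit of the Jurkat libraries alone the adjusted p was 0.0156. The size of the difference was 0.65 in the 3 fits, which differ in the libraries that set the spread and in the genes tested (14398, 14314 and 11920).

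In U937, LPS gave PPIF levels of 231 and 567 TPM against 599 and 568 TPM untreated. The low value came from the first LPS library, and the second lay beside the untreated ones. The difference was -0.69 ± 0.35 (adjusted p = 0.339) with both, -0.039 without the first and -1.33 without the second (adjusted p = 0.00326). In that first library the median tested gene with an untreated mean of at least 10 TPM was 0.80 lower than in untreated U937 on the log2 scale, and the median gene of about the length of PPIF 0.68 lower. Their part in the PPIF value was not tested.

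LPS left THP-1 at 502 and 445 TPM, overlapping the 442 and 486 TPM without it, a difference of 0.03 ± 0.35 (95% interval -0.74 to 0.79, adjusted p = 1). The LPS responses of THP-1 and U937, at different doses, differed by 0.71 ± 0.49 (adjusted p = 0.746). This difference was 1.36 (adjusted p = 0.0187) without the second LPS library of U937 and 0.068 without the first. Stimulated BJAB gave 185 and 255 TPM against 198 and 279 TPM, again overlapping, with a difference of -0.11 ± 0.35 (95% interval -0.88 to 0.65, adjusted p = 0.971). Its sign turned to 0.22 under median-of-ratios scaling, which moves the median of all genes in this comparison from -0.14 to 0, and to 0.12 without the first stimulated library. The responses of Jurkat and BJAB, to different agents, differed by 0.77 ± 0.49 (adjusted p = 0.477).

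**Figure D2:**
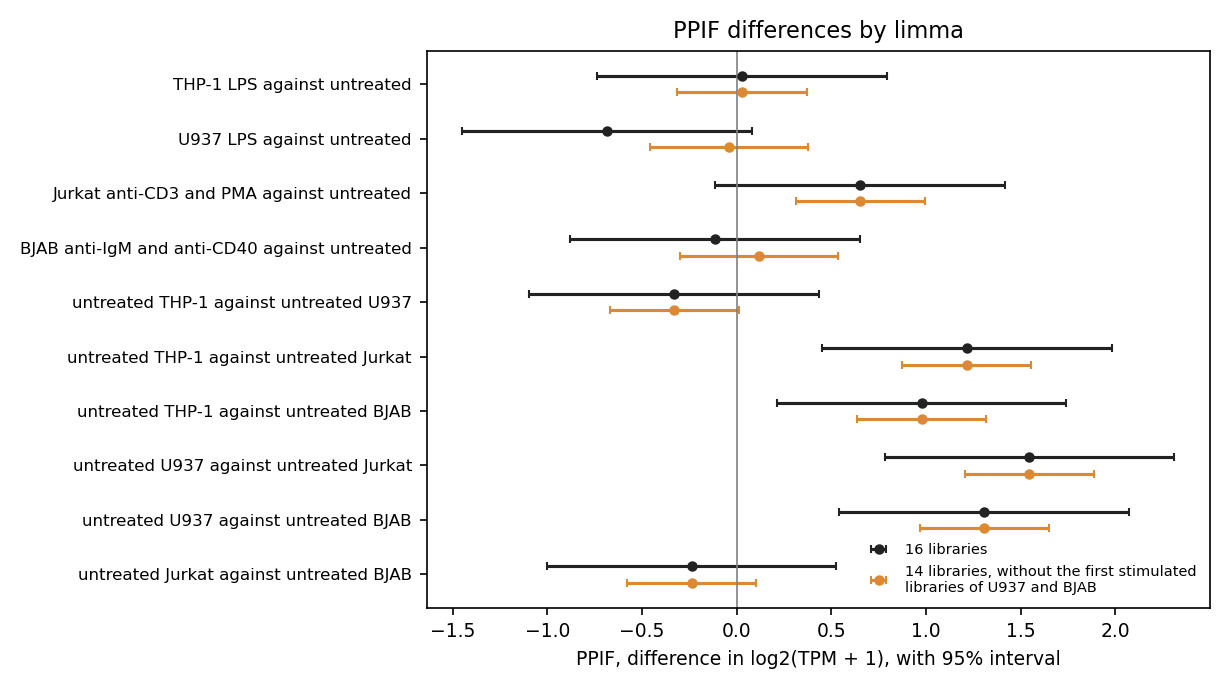
Difference in PPIF on the log2(TPM + 1) scale (horizontal axis) for 4 stimulations and 6 pairs of untreated lines. Points are limma estimates and bars 95% intervals, in black from 16 libraries and in orange from 14. The intervals of the 4 monocytic against lymphoid pairs lie above 0 in both fits, and that of stimulated Jurkat does so only in the fit of 14.

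The 6 genes whose log2(TPM + 1) most resembled that of PPIF over the 16 libraries, among 7666 genes with a mean of at least 10 TPM, were CTSB, EXOC3, CTSA, GPR132, PIK3CD and TRIM16. CTSB, a lysosomal cathepsin, had a Pearson r of 0.93 with PPIF (0.95 over the 14 libraries) and untreated means of 251 TPM in U937, 213 in THP-1, 80.9 in BJAB and 61.5 in Jurkat. The other 5 had an r of 0.92 to 0.93 over 16 libraries and 0.91 to 0.95 over 14. Over the 14 libraries the 6 genes ranked 4, 52, 7, 10, 35 and 67 in the order named, so other genes were then most like PPIF. The libraries share lines and treatments, so these are descriptions of which genes rank alike. Among the cyclophilins, PPIC had an r of 0.70 with PPIF (0.73 over 14 libraries), PPIL1 0.69 (0.62), PPIB 0.69 (0.86), PPIH 0.67 (0.63) and PPIE 0.42 (0.49). The lowest were PPIA at 0.27 (0.24), PPID at 0.13 (-0.07) and PPIG at 0.098 (0.38).

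Of the 4 genes beside PPIF in the order of coding genes on chromosome 10 (RefSeq, GRCh38.p14), ZCCHC24 was past the threshold in the same pairs of untreated lines and the same direction as PPIF, and the other 3 were not. ZMIZ1, a transcriptional coregulator on one side, was at 8.05 and 8.97 TPM in untreated THP-1 and 18.2 and 20.3 TPM in BJAB, so it was lower in THP-1 (-1.09 ± 0.30, adjusted p = 0.0145). On the other side, ZCCHC24 was at a few TPM in the monocytic lines and higher there than in each lymphoid line. Its difference was 1.72 ± 0.34 in THP-1 against Jurkat (adjusted p = 0.00206), 1.31 in THP-1 against BJAB (0.0107), 2.03 ± 0.34 in U937 against Jurkat (0.000696) and 1.63 in U937 against BJAB (0.00309). RPS24, a ribosomal protein gene one place further out, ranged only from 350 to 528 TPM over the untreated libraries. EIF5AL1, the next gene on the far side, is a near copy of EIF5A, so its level is uncertain. It was lower in untreated THP-1 (13.7 and 12.3 TPM) than in Jurkat (45.6 and 56.6 TPM; -1.89 ± 0.56, adjusted p = 0.0216). In Jurkat, stimulation changed none of these 4 past the threshold: ZMIZ1 differed by 0.51 (adjusted p = 0.607) and ZCCHC24, at 0 to 1.30 TPM, by -0.79 (adjusted p = 0.342).

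Over the whole set, members were past the threshold between untreated lines, and none was in a stimulation in the fit of 16 libraries. So few genes of any kind were called in the stimulations that 0 of 9 is no result about the cyclophilins. Without the 2 libraries that stand apart 1 member, PPIF, was past the threshold in Jurkat. None of the 9 genes was past the threshold after LPS in THP-1, where 0.167% of all tested genes were, after LPS in U937 (0.0278%), after anti-CD3 and PMA in Jurkat (4.87%) or after anti-IgM and anti-CD40 in BJAB (6.4%). At an unadjusted p under 0.05 the counts were 0, 1 (PPID), 0 and 2 (PPIB and PPIH), and voom on the recovered reads called 0 in each. Between the LPS responses of the monocytic lines (0.0486% of all genes) and between the responses of Jurkat and BJAB (5.24%) the count was again 0, with 0 and 1 (PPIB) at an unadjusted p under 0.05 and 0 by voom. A fit without the second LPS library of U937 leaves only the one that stands apart in that group. The median gene there was 0.80 lower than in untreated U937, so calls in that fit are not read as a result about the members.

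Between untreated lines, every member past the threshold was higher in the line named first. These were 3 of 9 for THP-1 over U937, where 25.9% of all tested genes were past it and 14.8% as higher in THP-1. They were 5 for THP-1 over Jurkat (35.1% of all genes, 15.5% as higher) and 4 for THP-1 over BJAB (35.5%, 20.6% as higher). They were 3 for U937 over Jurkat (32.6%, 12.9% as higher), 5 for U937 over BJAB (33.9%, 17.9% as higher) and 1 for Jurkat over BJAB (31.8%, 20.4% as higher). In 5 of the 6 pairs the share of members exceeded the share of all genes that were higher, but the pairs share groups, and 9 genes are few to read a share from. In each pair with THP-1 the members called also include PPIE and PPIH. These lie in 1 stretch of chromosome 1 where 21 of 28 intervening genes were higher in THP-1 too, so they do not count separately. Without the 2 libraries that stand apart the counts were 6, 7, 7, 5, 8 and 5 in the same order, and some members were then lower in the first line: PPIB, PPID and PPIG in THP-1 against U937, PPID and PPIG in THP-1 against Jurkat, and PPIB in Jurkat against BJAB. These counts have no share of all genes beside them and are not read as a result about the members. SEs were smaller in that fit (0.15 against 0.35 for PPIF). Calls rose in other lists too: of 17 spliceosome genes, 1 higher and 6 lower in THP-1 than in U937, against 0 and 1 with 16 libraries.

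**Figure D3:**
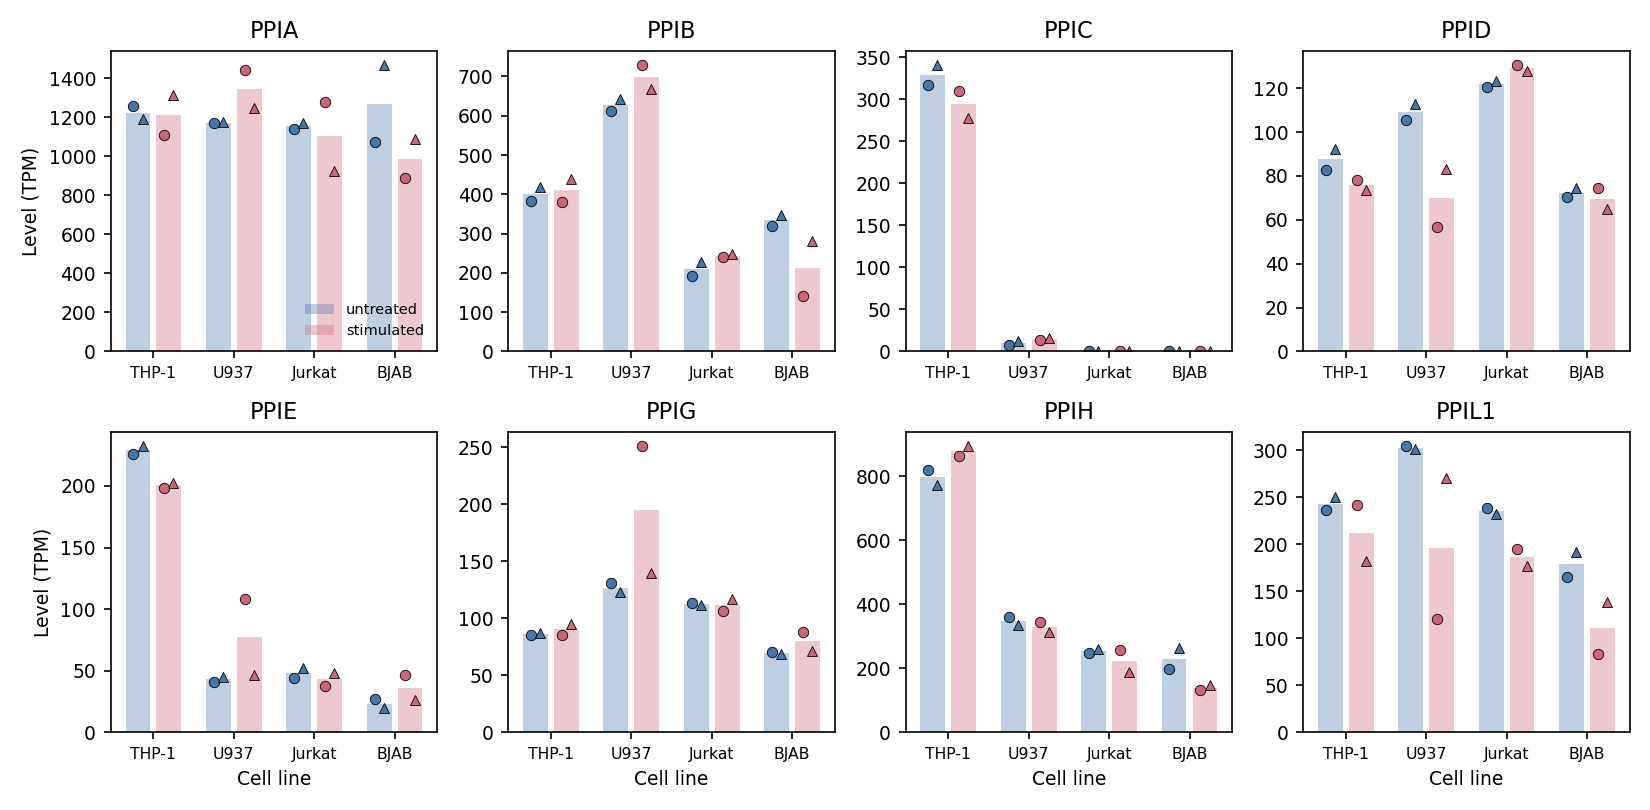
Levels in TPM (vertical axes, linear from 0, each gene on its own scale) of the 8 other cyclophilin genes in each library, by cell line and treatment. Bars are the means of 2 libraries, circles replicate 1 and triangles replicate 2. PPIC, PPIE and PPIH are highest in THP-1, PPIC is at 0 in Jurkat and BJAB, and PPIA is nearly level over the untreated lines.

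PPIA, the cytosolic cyclophilin, was the most abundant of the 9 and the most even. Its mean over the untreated lines was 1206 TPM, 106th of the tested genes, and the highest and lowest untreated lines (BJAB and Jurkat) differed 1.10-fold. Over the 8 untreated libraries its log2(TPM + 1) had an SD of 0.13. Of 2005 genes with a mean of at least 100 TPM, 2.24% had a smaller SD. Over all 16 libraries PPIA ranged from 890.0 TPM in the first stimulated BJAB library to 1468 in an untreated BJAB library. PPIA has many processed copies in the genome: 19.0% of the 50-base windows of its transcript occur in 50 other genes, while none of the windows of PPIF do. The deposited values are from unique alignments, so reads from these windows may be lost or credited to a copy, and the level of PPIA is uncertain to that extent. PPIAL4G, such a copy, was listed at 62.5 to 105.6 TPM, and the ratio of PPIA to it stayed between 11.4 and 15.4 in the 16 libraries. Of 7 listed copies, 5 were at 0 throughout.

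PPIB and PPIC, the cyclophilins of the secretory pathway, had their lowest untreated levels in the lymphoid lines, PPIC at 0 there. For PPIB, however, THP-1 and BJAB were not separated by the test. PPIB, cyclophilin B of the endoplasmic reticulum, gave 613 and 642 TPM in untreated U937, 383 and 419 in THP-1, 319 and 348 in BJAB, and 193 and 228 in Jurkat. No 2 lines overlapped, but how many of all tested genes separate in this way was not counted. The excess of THP-1 over BJAB did not pass the threshold (0.27 ± 0.27, limma adjusted p = 0.510). Nor did it without the 2 libraries that stand apart (adjusted p = 0.0656). U937 exceeded Jurkat by 1.58 ± 0.27 (adjusted p = 0.000707) and BJAB by 0.91 ± 0.27 (adjusted p = 0.0208), and THP-1 exceeded Jurkat by 0.93 ± 0.27 (adjusted p = 0.0179). The second of these was lost without any 1 of the 4 libraries compared (adjusted p 0.0666 to 0.110), and the third without either THP-1 library or the first Jurkat library (0.0621 to 0.118). In stimulated BJAB PPIB was at 141 and 282 TPM, with the lower value in the library that stands apart (-0.74, adjusted p = 0.126; without that library and the one of U937, -0.24, adjusted p = 0.345).

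PPIC, cyclophilin C, had the widest range of the set. Untreated THP-1 gave 317 and 340 TPM and LPS-treated THP-1 310 and 278 TPM. Untreated U937 gave only 7.78 and 12.9 TPM, and LPS-treated U937 13.8 and 15.96 TPM. All 8 Jurkat and BJAB libraries had 0 PPIC reads, out of 29126744 reads in Jurkat and 29095432 in BJAB. The monocytic lines therefore differed 31.8-fold from each other in untreated mean, or by 4.90 ± 0.24 on the log2(TPM + 1) scale (adjusted p = 3.83e-08). Against a floor of 3 reads in a library, at most 0.843 TPM, untreated THP-1 was at least 390.0-fold higher than the lymphoid lines and untreated U937 at least 12.3-fold higher. Such floors cover counting error only, since PCR reads are not independent molecules. Both LPS-treated U937 libraries lay above both untreated ones, as they did for 11.2% of all tested genes in that line, and the difference did not pass the threshold (0.52, adjusted p = 0.331).

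Of 12 other folding genes of the endoplasmic reticulum, 5 were higher and 0 lower in untreated THP-1 than in Jurkat, where 15.5% of all tested genes were higher, and 3 higher and 0 lower in U937 than in Jurkat (12.9%). Against BJAB the directions were mixed, with 1 higher and 2 lower in THP-1 (20.6% of all genes higher) and 2 higher and 3 lower in U937 (17.9%). THP-1 and U937 differed in 0 of them, where 25.9% of all tested genes were past the threshold. Without the 2 libraries that stand apart they differed in 9 (4 higher and 5 lower in THP-1). That count has no share of all genes beside it and is not read as a result about the list. P3H1, the prolyl 3-hydroxylase that works in a complex with CRTAP and cyclophilin B on collagen, was at 365 and 400.3 TPM in untreated THP-1 and 132 and 140.5 TPM in U937. In the lymphoid lines it was at 46.9 and 44.3 TPM (Jurkat) and 19.2 and 23.2 TPM (BJAB). CRTAP was instead highest in U937, at 118 and 106 TPM, against 53.0 and 59.0 in THP-1 and 19.3 to 27.3 in the lymphoid lines. In stimulated Jurkat HSP90B1, the Hsp90 of this compartment, was the only one of the 12 to pass the threshold: it rose from 358 and 351 TPM to 887 and 963 TPM (1.38 ± 0.14, adjusted p = 0.000112). Others of the list moved without passing it. HSPA5 went from 334 and 358 to 963 and 1063 TPM, and CALR from 908 and 999 down to 590 and 477 TPM. PPIB in the same libraries went from 193 and 228 to 239 and 249 TPM (0.22, adjusted p = 0.988). Without the 2 libraries that stand apart, 6 of the 12 rose and 1 fell in Jurkat, again with no share of all genes beside these counts.

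PPID, cyclophilin 40, which binds Hsp90 through its tetratricopeptide repeats, was the only member past the threshold between the lymphoid lines. It gave 121 and 123 TPM in untreated Jurkat and 70.5 and 74.4 in BJAB, a difference of 0.74 ± 0.22 (adjusted p = 0.0212) that was lost without any 1 of these 4 libraries (adjusted p 0.0752 to 0.112). Levels in untreated U937 (106 and 113 TPM) and THP-1 (82.8 and 92.4 TPM) lay between. Of 10 Hsp90 genes and cochaperones, 2 fell in stimulated BJAB, where 6.4% of all tested genes were past the threshold. Without the 2 libraries that stand apart 3 fell, a count with no share of all genes beside it. HSP90AA1, the inducible cytosolic Hsp90, went from 846 and 924 to 628 and 526 TPM (-0.62 ± 0.16, adjusted p = 0.0379), and AHSA1, which stimulates the Hsp90 ATPase, from 602 and 632 to 350.5 and 417 TPM (-0.69 ± 0.17, adjusted p = 0.0338). PPID there was at 70.5 and 74.4 TPM before and 74.5 and 64.8 TPM after (-0.06, adjusted p = 1.00, and -0.16, adjusted p = 0.525, without the 2 libraries).

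Among the nuclear cyclophilins, PPIE and PPIH were higher in THP-1 than in each other line. PPIE, a component of the activated spliceosome, gave 226 and 232 TPM in untreated THP-1. In the rest it gave 43.9 and 51.9 TPM (Jurkat), 40.9 and 45.2 TPM (U937) and 27.0 and 19.6 TPM (BJAB). THP-1 exceeded Jurkat by 2.24 ± 0.38 (adjusted p = 0.000632), U937 by 2.39 ± 0.38 (adjusted p = 0.000600) and BJAB by 3.26 ± 0.38 (adjusted p = 2.78e-05). PPIH, a partner of PRPF3 and PRPF4 in the U4/U6.U5 particle, gave 821 and 772 TPM in untreated THP-1 and 361 and 335 TPM in U937. In the lymphoid lines it gave 249 and 260.3 TPM (Jurkat) and 198 and 262 TPM (BJAB). Its excess in THP-1 was 1.19 ± 0.20 over U937 (adjusted p = 0.000911), 1.64 ± 0.20 over Jurkat (adjusted p = 4.82e-05) and 1.80 ± 0.20 over BJAB (adjusted p = 1.91e-05). These 6 differences stayed past the threshold in all 27 alternatives tried. PPIH was also higher in U937 than in BJAB (0.61 ± 0.20, adjusted p = 0.0352), in 16 of the 27. That call was lost without either untreated library of THP-1, U937 or Jurkat, or without the first of BJAB (adjusted p 0.0515 to 0.276).

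PPIL1 and PPIG, the other splicing-associated members, ranged over smaller folds between untreated lines than PPIE and PPIH. PPIL1 gave 304 and 301 TPM in untreated U937, 239 and 232 in Jurkat, 236 and 249.6 in THP-1, and 165 and 192 in BJAB, with no pair past the threshold in the fit of 16 libraries. In that of 14, U937 exceeded BJAB (0.76, adjusted p = 0.000776) and Jurkat (0.36, 0.0442), and THP-1 (0.45, 0.0167) and Jurkat (0.40, 0.0290) exceeded BJAB. PPIG, which carries a long serine and arginine rich tail, gave 130.5 and 123 TPM in U937, 113 and 112 in Jurkat, 85.3 and 86.9 in THP-1, and 70.2 and 68.4 in BJAB. U937 exceeded BJAB by 0.86 ± 0.26 (adjusted p = 0.0232), which was lost without any 1 of those 4 libraries (adjusted p 0.0832 to 0.117). The members moved apart in the U937 library that stands apart, with PPIE 1.31 and PPIG 0.98 above the untreated mean on the log2 scale and PPIF 1.33 and PPIL1 1.32 below it, while in the second the 4 genes lay between -0.16 and 0.14 of it. Of 17 other spliceosome genes, 1 was lower in THP-1 than in U937, and 1 was higher and 1 lower in THP-1 than in each lymphoid line, where 25.9%, 35.1% and 35.5% of all tested genes differed. Those shares are from the fit of 16 libraries. Without the 2 libraries that stand apart 1 was higher and 6 lower against U937, 3 and 6 against Jurkat, and 2 and 2 against BJAB. The latter counts have no share of all genes beside them and are not read as a result about the list. CRNKL1, another component of the activated spliceosome, was the lower one against U937 (-1.14 ± 0.36, adjusted p = 0.0372) and Jurkat (-1.56 ± 0.36, adjusted p = 0.00514).

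PPIE and PPIH lie on chromosome 1 with 34 coding genes between them in the RefSeq order (GRCh38.p14), and most of those genes shared their pattern. This was examined after the values of PPIE and PPIH had been seen and is a description. Of the 28 intervening genes tested, 26 had their highest untreated mean in THP-1, against 22.4% of all tested genes. Of the 28, 21 (75%) were past the threshold as higher in THP-1 than in each other line, against 6.85% of all tested genes. The median excess of THP-1 over the mean of the other lines was 2.81 on the log2 scale for the 28 and -0.08 for all genes. CAP1, a regulator of actin, was at 5594 TPM in untreated THP-1 against 239 to 351 TPM in the other lines, and PPT1, a lysosomal thioesterase, at 4221 TPM against 176 to 738 TPM. FOXJ3, nearer to PPIH, was at 77.4 TPM in THP-1 and 20.6 to 40.5 in the others, and was not past the threshold against all 3. Among the next 20 tested genes after PPIH, which include P3H1, 11 passed and the median was 1.78. Among the 20 before PPIE, 2 passed and the median was -0.27, and the 3 windows of 20 farther out had 2, 1 and 1. Whether the construct or the line accounts for the stretch cannot be told apart here.

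**Figure D4:**
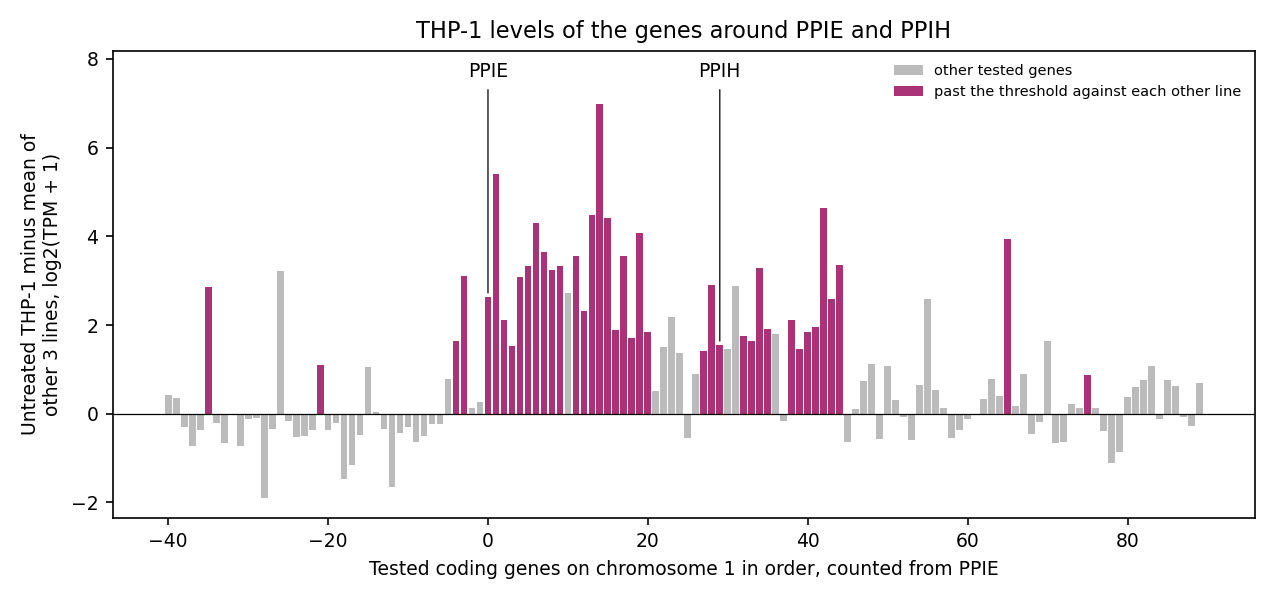
Untreated THP-1 minus the mean of the other 3 untreated lines on the log2(TPM + 1) scale (vertical axis) for tested coding genes in their order on chromosome 1, counted from PPIE (horizontal axis, places and not distances). Purple bars are genes past the threshold as higher in THP-1 than in each other line, and grey bars the rest. From PPIE to PPIH 21 of the 28 intervening bars are purple, and 2 of the 20 before PPIE.

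Among the mitochondrial partners of cyclophilin D, some were higher and others lower in the monocytic lines. Of 26 genes of the inner membrane and of the proposed pore (ATP synthase subunits, adenine nucleotide carriers, porins and others), none passed the threshold in any stimulation. Of all tested genes 0.0278% to 6.4% did. Without the 2 libraries that stand apart 1 of the 26 did, as higher in BJAB. In the pairs of untreated lines in which PPIF differed, 4 of the 26 were higher and 5 lower in U937 than in BJAB. Of all tested genes 17.9% were higher there and 33.9% past the threshold in either direction. The counts were 4 and 2 in U937 against Jurkat (12.9% and 32.6%), 4 and 2 in THP-1 against BJAB (20.6% and 35.5%), and 2 and 1 in THP-1 against Jurkat (15.5% and 35.1%). In no pair was the share of the 26 past the threshold well above that of all genes, so these counts do not set the list apart. Without the 2 libraries that stand apart the counts were 8 and 9, 6 and 5, 7 and 9, and 6 and 2 in the same order. The commoner direction in THP-1 against BJAB thus depended on the fit. The counts of that fit have no share of all genes beside them. Single members differed far more than PPIF. TSPO, an outer membrane protein once proposed as part of the pore, was at 781 and 739 TPM in untreated THP-1, 303 and 273 in U937, and 0 in every untreated lymphoid library. SLC25A4, an adenine nucleotide carrier, ran the other way, at 94.98 and 94.4 TPM in BJAB, 65.2 and 58.1 in Jurkat, 11.7 and 11.6 in THP-1, and 0.242 and 0 in U937. SLC25A5, the most abundant carrier of this family, was at 1434 to 2474 TPM in all untreated libraries.

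Of 9 genes of mitochondrial calcium uptake, which supplies the calcium that opens the pore, MCUB stood out by the size of its difference between lines. MCUB encodes the subunit that lowers uptake through the channel. It was at 252 and 236 TPM in untreated Jurkat and 261 and 192 in BJAB, at 23.1 and 22.9 in U937, and at 0.470 and 2.02 in THP-1. It was lower in both monocytic lines, with a difference of -6.86 ± 0.39 for THP-1 against Jurkat (adjusted p = 6.06e-08) and of -3.23 ± 0.39 for U937 against BJAB (adjusted p = 4.22e-05). No gene of this list passed the threshold in any stimulation, where 0.0278% to 6.4% of all tested genes did.

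Of 4 genes of calcineurin, the target of the cyclophilin A and cyclosporin complex, 1 was past the threshold in stimulated Jurkat, where 4.87% of all tested genes were. PPP3CA, a catalytic subunit, rose from 9.58 and 8.17 TPM to 36.0 and 41.4 TPM (2.01 ± 0.51, adjusted p = 0.0458, and 7.60e-06 without the 2 libraries that stand apart). The other 3 calcineurin genes did not pass the threshold there. PPIA in the same libraries went from 1139 and 1172 to 1279 and 927 TPM, which overlap (-0.09, adjusted p = 1). In BJAB PPP3CA was at 8.77 and 8.06 TPM untreated and 58.3 and 13.6 TPM stimulated, the higher value in the library that stands apart (1.64 ± 0.51, adjusted p = 0.0801). Without the 2 libraries that stand apart it was past the threshold with a smaller difference (0.63, adjusted p = 0.0381).

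The remaining isomerases also had no call in a stimulation in the fit of 16 libraries, where 0.0278% to 6.4% of all tested genes did. Of 8 further cyclophilins and cyclophilin-domain proteins, none passed the threshold in any stimulation (without the 2 libraries that stand apart, 1 fell in Jurkat and 1 in BJAB). PPIL4 and PPIL6 were the 2 lower in THP-1 than in U937, where 25.9% of all tested genes were past the threshold. PPIL6 rested on few reads, 9 and 2 in untreated THP-1 and 27 and 66 in untreated U937. PPIL4 was at 36.1 and 39.985 TPM in untreated THP-1 against 92.5 and 100.4 in U937 (-1.32 ± 0.30, adjusted p = 0.00653). Of 17 isomerases of the FKBP and parvulin families, the other classes of prolyl isomerase, none passed it in any stimulation either. Between lines they differed in both directions. FKBP1A, the receptor of tacrolimus, was at 228 and 235 TPM in THP-1 and 613 to 762 TPM in the other untreated lines. FKBP11 was at 39.8 to 52.7 TPM in the lymphoid lines and 1.60 to 2.47 in the monocytic ones, and FKBP9 at 18.0 and 22.7 TPM in THP-1 and under 0.29 in the rest.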

How the data were processed

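SmartSeq2 libraries, primed with oligo-dT, were aligned with TopHat2 to hg19, per the submitters' processing notes. The counting program, annotation and tool versions were not stated in the sources used here. The authors deposited 1 table of TPM from unique alignments per library. No label or header records a scaling between libraries. The members and gene lists were chosen with earlier results of these data known.

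The 14398 genes that reached a TPM of 1 in 2 or more libraries were tested with limma 3.58.1 in R 4.3.3 on log2(TPM + 1), which understates differences of low genes. The fit had 1 coefficient for each of the 8 groups, a trend, 8 residual degrees of freedom and 3.18 prior ones. Tests were two-sided, adjusted by Benjamini-Hochberg over all tested genes, with a threshold of 0.05 in 12 comparisons. The spread is pooled over the lines.

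Values of a gene are multiples of a step, taken as 1 read. Whole reads (tolerance 0.001) came out for 17277 of 19092 genes above 0 (90.5%), and for 98.0% of genes tested on simulated data. Depths rest on this step.

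The genes named are all members, the 6 most like PPIF, 2 coding neighbours on each side of PPIF and, per list, up to 4 members past the threshold with the largest difference, or the 2 most abundant. Other genes named, among them those between PPIE and PPIH and members given beside a named gene, were chosen after their values were seen. Promoters were in the table for 7 of 9 members. The comparison of PPIA with genes often used as references is not reported here.

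Alternatives were pseudocounts of 0.1 and 5, no filter, a TPM minimum of 5, median-of-ratios and quantile scaling, no trend, a replicate block, the compared lines alone, omission of the 2 libraries that stand apart, voom on the recovered reads, and each library left out in turn, 27 in all. The 2 libraries stood apart by their spread in these same data, so SEs and p-values tend to be smaller without them by that choice. Counts of genes called without them have no share of all genes beside them.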

Additional observations from a re-analysis of the deposited data

How the results depend on the processing

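PPIC, PPIE and PPIH stayed past the threshold in THP-1 against each other line in all 27 alternatives. In Jurkat the PPIF difference after stimulation, 0.65, passed with the Jurkat libraries alone (adjusted p = 0.0156) and without the 2 libraries that stand apart (0.0193), each with 1 member called. In BJAB it turned to 0.22 under median-of-ratios scaling and 0.12 without those 2. PPIF in THP-1 over BJAB was 0.98 and lost its call with a pseudocount of 0.1 (adjusted p = 0.0516), no filter (0.0630) and no trend (0.0529). In U937 over BJAB it was 1.31 in those 2 lines alone (0.0761). Without the 2 libraries, members called numbered 6 for THP-1 over U937, 7 for THP-1 over BJAB, 5 for U937 over Jurkat, 8 for U937 over BJAB and 5 for Jurkat over BJAB. These counts include members lower in the first line and have no share of all genes beside them. U937 over BJAB had 1 with those lines alone and 3 by voom, and Jurkat over BJAB 2 under quantile normalization, 2 with the lines alone and 0 under median-of-ratios scaling.

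Deviations of libraries of the same number had correlations of 0.01 in THP-1, -0.04 in U937, 0.02 in Jurkat and 0.14 in BJAB. With 2 libraries per group these cannot show whether such libraries shared a culture or a batch. With the replicate block, centred within each line, PPIF in THP-1 over BJAB was 0.98 (adjusted p = 0.0599), PPIH in U937 over BJAB 0.61 (0.0768) and PPID in Jurkat over BJAB 0.74 (0.0635), which left 0 members called in Jurkat over BJAB.

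With each library left out in turn, PPIF ranged from -0.060 to 0.12 after LPS in THP-1, -1.33 to -0.039 in U937 (0 to 5 members called) and -0.36 to 0.13 in BJAB (0 to 2 called). It ranged from 1.15 to 1.28 in THP-1 over Jurkat (3 to 6 called), 0.73 to 1.22 in THP-1 over BJAB, 1.06 to 1.55 in U937 over BJAB (1 to 8 called) and -0.49 to 0.0090 in Jurkat over BJAB (0 to 4 called). The difference of LPS responses ranged from 0.068 to 1.36 (0 to 3 called), and 0 to 1 member was called in that of Jurkat and BJAB. A library left alone in its group is taken to vary as those of other groups do. The counts of members called in these fits have no share of all genes beside them.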
